A study of Mus musculus with 9 samples.

Results

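The genes described here are 39 markers of DNA replication and mitosis, taken by symbol from the 22637 gene symbols counted in each kidney library. All 39 symbols were present, and all 39 passed the filter on low counts. They were divided into 15 S phase genes (the helicase, clamp, origin loader, deoxynucleotide enzymes and G1/S drivers) and 24 mitotic genes (entry kinases and cyclins, chromosome, spindle, kinetochore and anaphase genes). The genes were taken for their known functions and not by a cut on their values, but the list was drawn up with earlier results of these data known. The transcripts of Rrm2, Foxm1, Ccna2, Cdc2a, Melk, Top2a and Mki67 run from S phase into G2, so their phase is a convention.

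Cells that enter the cycle load the MCM helicase onto replication origins, fire those origins in S phase under cyclin E and E2F control, and copy the genome with the sliding clamp and a raised supply of deoxynucleotides. Mitotic genes are switched on later, in G2, by the MuvB core together with MYBL2 and FOXM1, and their products condense, align and part the chromosomes. Most cells of the adult kidney are quiescent, and transcripts of both phases are used in tissue as markers of cycling cells, which in an injured kidney can be tubular, interstitial or infiltrating immune cells.

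Whole kidneys of 129X1/SvJ mice at 9 weeks of age gave 9 libraries in 3 groups of 3. The WT group was wild type and is labelled as untreated. The KO_PBS group carried the Col4a3 -/- genotype and was given PBS, and the KO_antimiR21 group carried the same genotype and was given antimiR-21, an inhibitor of the microRNA miR-21. Col4a3 encodes a chain of the type IV collagen of the glomerular basement membrane, and its loss in mice is a model of Alport syndrome. The wild-type mice received no PBS, so genotype and injection cannot be told apart in the comparisons with WT. Nothing in the labels states that each library is a different animal. The p-values therefore cover the spread among these samples, part of which may be technical.

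Libraries held 26448275 to 31786624 expected counts. Col4a3 itself stood at 371, 257 and 316 CPM (counts scaled to library size) in WT 1 to 3, at 44.3, 94.3 and 60.2 CPM in KO_PBS 1 to 3, and at 104, 70.6 and 138 CPM in KO_antimiR21 1 to 3. Every knockout library thus lay below every WT library. The count covers the whole gene, and the deleted part is not given in the sources used here. Defining genes of kidney segments (Slc34a1, Umod, Aqp2 and Podxl) were present in every library. Sex was uneven: the summed CPM of 4 Y-linked genes was 0.928 in WT 1 and 1.49 in WT 3 against 102 to 118 in the other 7 libraries. The WT group thus held 2 female libraries and 1 male library, so it came from more than 1 animal, and both knockout groups held males only. The deposited library names also carry a code whose meaning is not given in the sources used here. It was L5 in KO_PBS 3 and in all KO_antimiR21 libraries, and L4 in the other 5 libraries.

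Both phases were higher in the PBS-treated knockout kidney than in wild type, and the mitotic genes by the larger factor. edgeR's quasi-likelihood test called 36 of the 39 genes higher in KO_PBS than in WT and 0 lower, at an adjusted p under 0.05, against a background of 14.6% of the 17315 genes tested that were called higher and 9.85% that were called lower. Among S phase genes 14 of 15 were called, with a median log2 fold change of 1.38, a factor of 2.59. Among mitotic genes 22 of 24 were called, with a median of 2.80, a factor of 6.97. The median over all tested genes was -0.03. All 39 genes had every KO_PBS library above every WT library, which held for 22.6% of all genes tested. Ccne2, Cenpa and Ube2c were the members not called. Scaling matters to the genes as a whole: edgeR called 2521 of them higher and 1705 lower with TMM scaling, and 3753 higher and 904 lower when scaled by library size alone, where the median of all genes was 0.25 and 38 members were called.

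Sex limits this comparison. With sex in the fit, edgeR called 0 of the 39 genes and 0 of all genes tested, the smallest adjusted p among members being 0.0553. The fold change stayed positive in 39 of 39 members. That fit sets the all-male knockouts against WT 2, the male wild-type library, which had the highest value of the 3 WT libraries in 29 of the 39 genes. Its medians were 1.0 for S phase genes and 2.55 for mitotic genes. When only the 7 male libraries were kept, which left WT 2 as the sole WT library, the medians were 1.02 and 2.58.

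In bulk tissue, more cycling cells and more of these transcripts per cell cannot be told apart, and this holds for every level given here. For 6 genes (Cdc6, Melk, Bub1, Bub1b, Ttk and Cenpa) at least 1 WT library lay under the level that the filter asks for. That level is 0.359 CPM scaled by library size alone, without the TMM factors used in the CPM values printed here. Those 6 genes thus passed on the strength of the knockout libraries. Of the other 33 members, 31 were called higher in KO_PBS than in WT, against 14.6% of all genes tested.

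**Figure D1:**
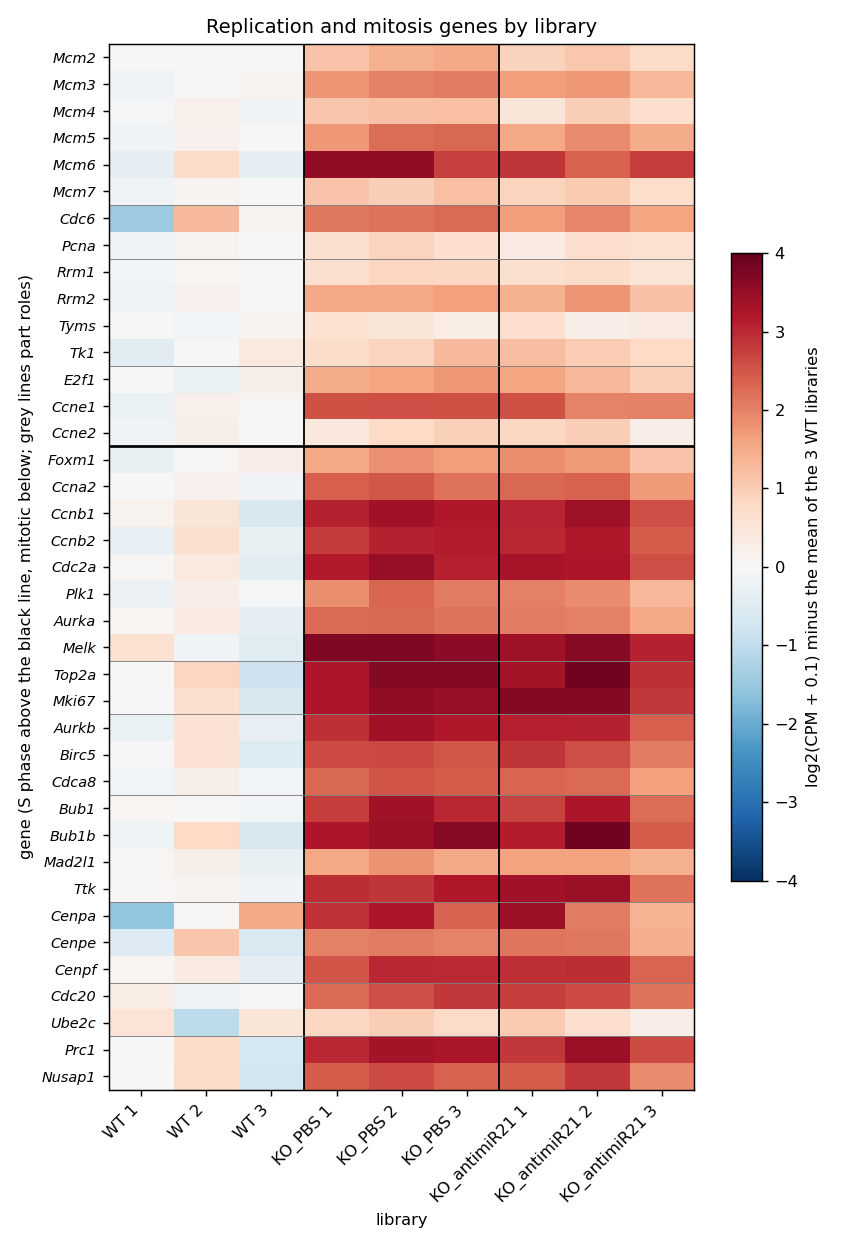
Each cell is log2(CPM + 0.1) of 1 gene in 1 library minus that gene's mean over the 3 WT libraries, with S phase genes above the thick black line and mitotic genes below it. All 39 genes turn red in the 3 KO_PBS libraries, more deeply among the 24 mitotic genes, and KO_antimiR21 3 is paler than the other knockout libraries.

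The MCM helicase unwinds DNA ahead of the polymerases, and its subunits Mcm2 to Mcm7 form a ring with each subunit present once. All 6 subunit genes were called higher in KO_PBS than in WT, against 14.6% of all genes, with a median log2 fold change of 1.67. Mcm7, with the most counts of them, stood at 21.6, 25.7 and 23.7 CPM in WT 1 to 3, 52.1, 47.3 and 54.6 CPM in KO_PBS 1 to 3, and 43.5, 48.9 and 38.9 CPM in KO_antimiR21 1 to 3. Mcm6 stood at 3.25, 7.22 and 3.26 CPM in WT 1 to 3, 50.9, 50.9 and 28.8 CPM in KO_PBS 1 to 3, and 31.2, 22.4 and 29.2 CPM in KO_antimiR21 1 to 3. Mcm2 stood at 12.6, 13 and 11.9 CPM in WT 1 to 3, 27.7, 33.3 and 36.2 CPM in KO_PBS 1 to 3, and 23.5, 26.7 and 21.2 CPM in KO_antimiR21 1 to 3. For each of these 3 genes the 3 WT libraries were the lowest of the 9, and the KO_PBS libraries did not overlap them. KO_PBS 3 was the lowest KO_PBS library for Mcm6, and KO_PBS 1 was the lowest for Mcm2.

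The fold changes of the subunits differed in size. Mcm6 had the largest of any S phase gene, a log2 fold change of 3.25 ± 0.37 (SE), a factor of 9.5, with an edgeR adjusted p of 0.00135. Against the male WT library alone, through the fit with sex, it was 2.59, and WT 2 held 7.22 CPM of Mcm6 against 3.25 and 3.26 in the female WT libraries. Mcm5 rose by 2.11 ± 0.20 and Mcm3 by 1.97 ± 0.17 on the log2 scale. Mcm2 (1.38), Mcm4 (1.17) and Mcm7 (1.12) rose by less, and the edgeR adjusted p of the 6 subunits ran from 0.00135 to 0.00204.

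Per kilobase of transcript (GENCODE vM21 lengths), the subunits were far from equal in wild type. Mcm7 led at 7.99 ± 0.692 CPM per kb (SD, n = 3), followed by Mcm2 at 3.70 ± 0.175 and Mcm4 at 3.15 ± 0.379 CPM per kb, whose spreads touched. Mcm3 at 2.36 ± 0.252 and Mcm5 at 2.32 ± 0.286 CPM per kb did not differ beyond their spread. Mcm6 was the lowest at 1.57 ± 0.787 CPM per kb, a spread that reaches Mcm3 and Mcm5 and comes from the high WT 2. In KO_PBS the order was different: Mcm7 at 17.3 ± 1.26 and Mcm6 at 15 ± 4.39 CPM per kb overlapped in spread, Mcm5 (10 ± 2.04), Mcm2 (9.61 ± 1.29) and Mcm3 (9.21 ± 0.992) followed within their spread, and Mcm4 was lowest at 7.09 ± 0.251 CPM per kb.

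**Figure D2:**
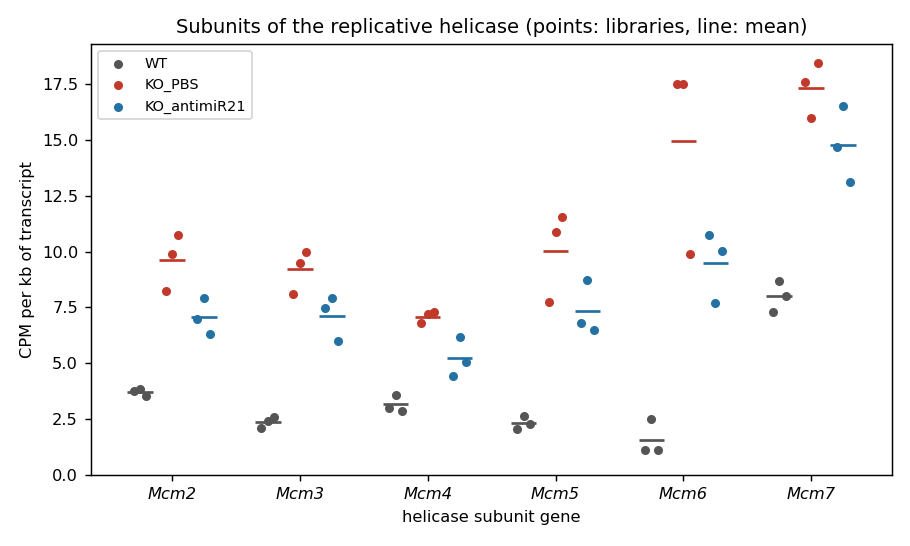
CPM per kilobase of transcript for the 6 helicase subunit genes, with 1 point per library and a line at the mean of the 3 libraries of each group. Mcm6 moves from the lowest subunit in WT (mean 1.57) to the next after Mcm7 in KO_PBS (mean 15), and in every subunit the KO_antimiR21 mean lies between the WT and KO_PBS means.

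The promoters of 3 subunits are shown because they carry the letters of an E2F site, the class of site through which S phase genes are switched on. Each window runs from 120 bases before to 30 bases after a start site that RefSeq gives, on the gene's own strand, 5′ to 3′. The build is GRCm38.p6, later than the mm9 used for the counts. Capitals mark E2F letters (TTTCCCGC, TTTGGCGC, TTTCGCGC, TTTGCCGC or their complements GCGGGAAA, GCGCCAAA, GCGCGAAA, GCGGCAAA) and the CCAAT box (CCAAT or ATTGG), to which NF-Y binds. The windows are Mcm7 at chr5:138171854-138172003, minus strand, Mcm6 at chr1:128359676-128359825, minus strand, and Mcm3 at chr1:20820283-20820432, minus strand.
Mcm7: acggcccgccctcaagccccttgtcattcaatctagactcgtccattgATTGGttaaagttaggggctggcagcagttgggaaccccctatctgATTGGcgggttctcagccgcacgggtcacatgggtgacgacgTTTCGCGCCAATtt
Mcm6: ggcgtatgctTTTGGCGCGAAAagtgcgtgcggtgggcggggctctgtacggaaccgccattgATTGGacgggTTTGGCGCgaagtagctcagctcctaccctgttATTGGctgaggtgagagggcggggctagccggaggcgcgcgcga
Mcm3: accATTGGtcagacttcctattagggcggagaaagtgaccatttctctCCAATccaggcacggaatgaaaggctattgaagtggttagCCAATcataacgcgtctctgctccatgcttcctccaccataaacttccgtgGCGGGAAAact
In the Mcm7 window the E2F letters just after the start run into a CCAAT box and share its first letter. The window of 300 bases at a further RefSeq start of Mcm7 holds a CCAAT box and no E2F letters. In the Mcm6 window TTTGGCGC and GCGCGAAA overlap in the distal match, and a further TTTGGCGC lies nearer the start.

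Cdc6 loads the helicase at origins and Pcna is the sliding clamp of the polymerases; both were called higher in KO_PBS than in WT. Pcna was the member with the most counts and stood at 34.7, 43 and 38.9 CPM in WT 1 to 3, 59.9, 71.9 and 61.5 CPM in KO_PBS 1 to 3, and 48.9, 61.5 and 59.7 CPM in KO_antimiR21 1 to 3. Its KO_PBS libraries all lay above its WT libraries, with a log2 fold change of 0.73 ± 0.14 and an edgeR adjusted p of 0.00736. Cdc6 was scarce and stood at 0.211, 2 and 0.845 CPM in WT 1 to 3, 3.56, 3.77 and 3.98 CPM in KO_PBS 1 to 3, and 2.6, 3.19 and 2.43 CPM in KO_antimiR21 1 to 3. Its WT libraries ranged from 0.211 to 2 CPM, and the log2 fold change was 1.88 ± 0.58 with an edgeR adjusted p of 0.0458. That call was lost without WT 3, without any single KO_PBS library and without any single KO_antimiR21 library, and the fold change was 2.84 without WT 2. The tables also hold a symbol cdc6 in lower case, at 0 in 7 libraries and at 20.27 and 6.02 expected counts in KO_PBS 2 and 3. There both symbols together sum to whole numbers (133 and 134). Reads were therefore shared between both symbols, whose sequences were not compared, and adding their counts changed no call.

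The enzymes that supply deoxynucleotides rose least. All 4 were called higher in KO_PBS than in WT, against 14.6% of all genes, with a median log2 fold change of 0.87. Rrm1, the large subunit of ribonucleotide reductase, stood at 17.8, 20 and 19.6 CPM in WT 1 to 3, 29.9, 34.4 and 34.2 CPM in KO_PBS 1 to 3, and 29.8, 32.1 and 27.2 CPM in KO_antimiR21 1 to 3. Rrm2, the cell cycle controlled subunit of the same enzyme, stood at 6.83, 8.82 and 8.16 CPM in WT 1 to 3, 22.9, 23.2 and 24.7 CPM in KO_PBS 1 to 3, and 21.2, 26.8 and 17.8 CPM in KO_antimiR21 1 to 3. Tyms, which makes thymidylate, stood at 24.6, 22.5 and 26.4 CPM in WT 1 to 3, 37.4, 34.1 and 30 CPM in KO_PBS 1 to 3, and 39.4, 29.6 and 31.6 CPM in KO_antimiR21 1 to 3. Rrm1 and Rrm2 are parts of 1 enzyme, yet the log2 fold change was 0.78 ± 0.12 for Rrm1 and 1.57 ± 0.18 for Rrm2. Tyms had the smallest fold change of all members, 0.47 ± 0.15, and an edgeR adjusted p of 0.0493, just under the threshold. That call was lost in each fit without 1 WT library, in each fit without 1 KO_PBS library and in the fit without KO_antimiR21 3. Tk1, the thymidine salvage kinase, had a log2 fold change of 0.96 ± 0.24 (edgeR adjusted p = 0.0212), and its call was lost without WT 1, WT 2 or KO_PBS 3. Tyms has processed copies elsewhere in rodent genomes, and how the counting shared reads among such copies is not known here, so its value is uncertain.

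The drivers of S phase entry differed among themselves. Ccne1 and Ccne2 encode the E cyclins that fire CDK2, and E2f1 is a transcription factor that turns on S phase genes. Ccne1 stood at 0.464, 0.682 and 0.603 CPM in WT 1 to 3, 3.86, 3.97 and 3.88 CPM in KO_PBS 1 to 3, and 3.84, 2.58 and 2.65 CPM in KO_antimiR21 1 to 3. Its 3 KO_PBS libraries lay close together, and its log2 fold change was 2.73 ± 0.28, the next after Mcm6 among S phase genes, with an edgeR adjusted p of 0.00135. Ccne2 stood at 1.43, 1.88 and 1.49 CPM in WT 1 to 3, 2.14, 2.84 and 3.17 CPM in KO_PBS 1 to 3, and 2.87, 3.25 and 1.95 CPM in KO_antimiR21 1 to 3. Ccne2 did not overlap between KO_PBS and WT but was not called, at a log2 fold change of 0.76 ± 0.29 and an edgeR adjusted p of 0.0864. E2f1 stood at 3.5, 2.85 and 4.02 CPM in WT 1 to 3, 9.7, 10.4 and 11.6 CPM in KO_PBS 1 to 3, and 10.4, 8.7 and 6.69 CPM in KO_antimiR21 1 to 3. The E2f1 fold change was 1.62 ± 0.23 on the log2 scale, with an edgeR adjusted p of 0.00208.

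Genes that carry cells into mitosis rose in full number: 8 of 8 were called higher in KO_PBS than in WT, against 14.6% of all genes. Their median log2 fold change was 2.70. Ccna2, the A-type cyclin of S phase and G2, stood at 3.67, 4.13 and 3.3 CPM in WT 1 to 3, 19.6, 21.3 and 16.9 CPM in KO_PBS 1 to 3, and 18.3, 19.2 and 12.2 CPM in KO_antimiR21 1 to 3. Foxm1, a transcription factor of G2 and M genes, stood at 4.01, 5.05 and 5.91 CPM in WT 1 to 3, 14.7, 17.8 and 16 CPM in KO_PBS 1 to 3, and 18, 16.1 and 11 CPM in KO_antimiR21 1 to 3. Cdc2a, the older symbol of the mitotic kinase gene Cdk1, stood at 1.48, 1.88 and 1.01 CPM in WT 1 to 3, 13.5, 16.7 and 13 CPM in KO_PBS 1 to 3, and 14.9, 14 and 9 CPM in KO_antimiR21 1 to 3. In all 3 genes the groups KO_PBS and WT were far apart, and KO_antimiR21 3 was the lowest of the 6 knockout libraries.

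The log2 fold change was 3.30 ± 0.30 for Cdc2a, 2.38 ± 0.21 for Ccna2 and 1.69 ± 0.23 for Foxm1, the smallest of this set. Melk, a kinase gene of the MuvB and FOXM1 programme, had the largest fold change of the 39 genes and stood at 0.548, 0.281 and 0.201 CPM in WT 1 to 3, 5.37, 5.54 and 4.97 CPM in KO_PBS 1 to 3, and 4.31, 5.15 and 3.45 CPM in KO_antimiR21 1 to 3. With 5 to 13 counts in each WT library it was close to the limit of detection there, and its log2 fold change was 3.94 ± 0.37, a factor of 15.3. Ccnb1 (3.26) and Ccnb2 (3.02), the B cyclins that activate Cdk1, had larger estimates than the kinases Plk1 (2.13) and Aurka (2.29) on the same scale. The expected counts of Ccnb1 were whole numbers in every library, so they show no sign of reads split with another entry. Those of Tyms and Ube2c were not whole. How the counting treated near-identical copies of Ccnb1 is not known here, so its value is uncertain. The edgeR adjusted p of the 8 genes ran from 0.00135 to 0.00197.

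Top2a, the topoisomerase that untangles sister chromatids, and Mki67, which coats mitotic chromosomes, had the most counts of the mitotic genes. Mki67 stood at 4.51, 7.1 and 2.82 CPM in WT 1 to 3, 43.2, 53.2 and 51.4 CPM in KO_PBS 1 to 3, and 58.7, 58.7 and 32.6 CPM in KO_antimiR21 1 to 3. Top2a stood at 2.78, 5.21 and 1.53 CPM in WT 1 to 3, 27.3, 37.5 and 37 CPM in KO_PBS 1 to 3, and 29.2, 42 and 21.9 CPM in KO_antimiR21 1 to 3. For both genes WT 2 was the highest WT library and WT 3 the lowest, and no WT library reached a knockout library. The log2 fold change in KO_PBS against WT was 3.36 ± 0.36 for Mki67 and 3.41 ± 0.43 for Top2a, with edgeR adjusted p-values of 0.00135 and 0.00163.

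The promoters of the 3 mitotic genes with the most counts that hold the letters of a cell cycle genes homology region (CHR) near the start are shown in the same way. The CHR is the element to which LIN54 of the MuvB core binds, and its letters were searched as TTTGAA, which reads TTCAAA on the other strand. A variant form was searched too, TTCGAA, which reads alike on both strands. Capitals mark CHR letters and CCAAT boxes. The windows are Mki67 at chr7:135716350-135716499, minus strand, Top2a at chr11:99024160-99024309, minus strand, and Prc1 at chr7:80294331-80294480, plus strand.
Mki67: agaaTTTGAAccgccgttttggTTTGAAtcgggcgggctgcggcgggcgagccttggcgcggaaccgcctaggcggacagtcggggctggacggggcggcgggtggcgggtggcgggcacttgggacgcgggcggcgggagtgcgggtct
Top2a: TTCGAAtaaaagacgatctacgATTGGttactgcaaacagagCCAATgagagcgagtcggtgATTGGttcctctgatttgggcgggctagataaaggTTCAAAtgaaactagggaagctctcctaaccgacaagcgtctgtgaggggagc
Prc1: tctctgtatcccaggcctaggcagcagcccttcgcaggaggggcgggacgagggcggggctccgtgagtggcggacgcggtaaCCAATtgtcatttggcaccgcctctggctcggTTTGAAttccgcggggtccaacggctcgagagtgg
Mki67 holds a tandem pair of TTTGAA upstream of the start, and Top2a has CHR letters at both ends of a run of CCAAT boxes. In Prc1, TTTGAA lies across the start site shown, with 1 CCAAT box upstream. From a further RefSeq start of Prc1, TTTGAA lies at -30 to -25.

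The chromosomal passenger complex corrects kinetochore attachments and rose in all 3 of its genes here. Birc5, which encodes survivin, stood at 2.15, 3.29 and 1.45 CPM in WT 1 to 3, 13.9, 14.2 and 12.6 CPM in KO_PBS 1 to 3, and 16.3, 13.6 and 9.41 CPM in KO_antimiR21 1 to 3. Cdca8, which encodes borealin, stood at 1.73, 2.21 and 1.73 CPM in WT 1 to 3, 9.62, 11.2 and 10.5 CPM in KO_PBS 1 to 3, and 9.89, 9.34 and 6.06 CPM in KO_antimiR21 1 to 3. Aurkb, the kinase of the complex, stood at 0.633, 1.2 and 0.603 CPM in WT 1 to 3, 6.52, 8.85 and 7.98 CPM in KO_PBS 1 to 3, and 7.37, 7.35 and 4.45 CPM in KO_antimiR21 1 to 3. The KO_PBS and WT libraries of each gene were clearly separate, and KO_antimiR21 3 was the lowest knockout library in all 3. Aurkb had the largest log2 fold change of the complex in KO_PBS against WT, 3.25 ± 0.35, and Birc5 (2.56) and Cdca8 (2.46) were close to each other, with edgeR adjusted p-values from 0.00135 to 0.00157.

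The spindle checkpoint holds anaphase back until every chromosome is attached. In KO_PBS against WT, 4 of its 4 genes were called higher, against 14.6% of all genes. Mad2l1, which encodes the checkpoint protein MAD2, stood at 4.26, 4.89 and 3.38 CPM in WT 1 to 3, 12.2, 14.7 and 11.9 CPM in KO_PBS 1 to 3, and 12.8, 12.9 and 11.2 CPM in KO_antimiR21 1 to 3. Bub1b, which encodes BUBR1, stood at 0.548, 1.16 and 0.362 CPM in WT 1 to 3, 6.71, 7.88 and 8.85 CPM in KO_PBS 1 to 3, and 6.24, 10.5 and 3.75 CPM in KO_antimiR21 1 to 3. Bub1, a checkpoint kinase gene, stood at 0.422, 0.401 and 0.362 CPM in WT 1 to 3, 3.29, 4.97 and 3.94 CPM in KO_PBS 1 to 3, and 3.1, 4.57 and 2.24 CPM in KO_antimiR21 1 to 3. Ttk, which encodes the kinase MPS1, stood at 0.338, 0.361 and 0.282 CPM in WT 1 to 3, 3.21, 2.97 and 3.79 CPM in KO_PBS 1 to 3, and 4.23, 4.54 and 1.8 CPM in KO_antimiR21 1 to 3. Bub1 and Ttk had 7 to 10 counts in each WT library, so their WT levels rest on few reads. Bub1, Bub1b and Ttk each had at least 1 WT library under the filter level, so they passed on the strength of the knockout libraries. The log2 fold changes were 3.49 ± 0.50 for Bub1b, 3.35 ± 0.35 for Bub1 and 3.33 ± 0.40 for Ttk, against 1.63 ± 0.19 for Mad2l1. Without WT 2 the value for Bub1b was 4.11. The edgeR adjusted p of the 4 genes ran from 0.00135 to 0.00235.

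Of the 3 centromere and kinetochore genes, 2 were called higher in KO_PBS than in WT, against 14.6% of all genes. Cenpf, a kinetochore gene, stood at 1.48, 1.8 and 1.05 CPM in WT 1 to 3, 8.52, 12.2 and 11.9 CPM in KO_PBS 1 to 3, and 11.3, 11.5 and 7.42 CPM in KO_antimiR21 1 to 3. Cenpe, a kinetochore motor gene, stood at 1.14, 3.73 and 1.05 CPM in WT 1 to 3, 6.96, 7.38 and 6.83 CPM in KO_PBS 1 to 3, and 7.6, 7.44 and 4.67 CPM in KO_antimiR21 1 to 3. Cenpa, the centromeric histone H3 variant, stood at 0, 0.2 and 0.724 CPM in WT 1 to 3, 2.06, 2.64 and 1.4 CPM in KO_PBS 1 to 3, and 2.99, 1.1 and 0.662 CPM in KO_antimiR21 1 to 3. Cenpf rose by 2.91 ± 0.29 on the log2 scale with an edgeR adjusted p of 0.00135. Cenpe had 3.73 CPM in WT 2 against 1.14 and 1.05 CPM in the other WT libraries, and its log2 fold change was 1.84 ± 0.47 (edgeR adjusted p = 0.0226), or 2.70 without WT 2. Its call was lost in the fits without WT 1, without WT 3 and without any single KO_PBS library. Cenpa was listed at 0 in WT 1 and was not called, at 2.69 ± 0.93 and an edgeR adjusted p of 0.0664; without WT 3 it was called, at 4.23. DESeq2 and limma also called Cenpa.

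The anaphase-promoting complex was represented by its activator Cdc20 and its ubiquitin-conjugating enzyme Ube2c, and these went apart. Cdc20 stood at 2.49, 1.72 and 1.89 CPM in WT 1 to 3, 9.98, 12.6 and 14.9 CPM in KO_PBS 1 to 3, and 14.1, 12.7 and 9.37 CPM in KO_antimiR21 1 to 3. Ube2c stood at 7.59, 2.41 and 7.28 CPM in WT 1 to 3, 9.21, 10.2 and 8.7 CPM in KO_PBS 1 to 3, and 10.7, 8.28 and 6.17 CPM in KO_antimiR21 1 to 3. Cdc20 rose by 2.62 ± 0.26 on the log2 scale with an edgeR adjusted p of 0.00135. Ube2c did not pass, at 0.70 ± 0.40 and an edgeR adjusted p of 0.237, although its KO_PBS and WT libraries did not overlap. Its WT libraries split as 2.41 CPM in the male WT 2 against 7.59 and 7.28 CPM in the female WT 1 and WT 3, and against males only its log2 fold change was 1.99. Whether sex or reads of a near-identical copy bear on those WT values was not tested.

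Prc1 and Nusap1 encode bundlers of spindle microtubules. Prc1 stood at 1.81, 3.13 and 1.09 CPM in WT 1 to 3, 15.7, 19.6 and 18.6 CPM in KO_PBS 1 to 3, and 13.8, 20.9 and 11.8 CPM in KO_antimiR21 1 to 3. Nusap1 stood at 1.77, 3.13 and 1.05 CPM in WT 1 to 3, 10.1, 11.6 and 9.66 CPM in KO_PBS 1 to 3, and 10.2, 13.5 and 6.95 CPM in KO_antimiR21 1 to 3. In both genes WT 2 was the highest WT library and still lay below every knockout library. The log2 fold change in KO_PBS against WT was 3.16 ± 0.38 for Prc1 and 2.40 ± 0.40 for Nusap1, with edgeR adjusted p-values of 0.00149 and 0.00395.

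**Figure D3:**
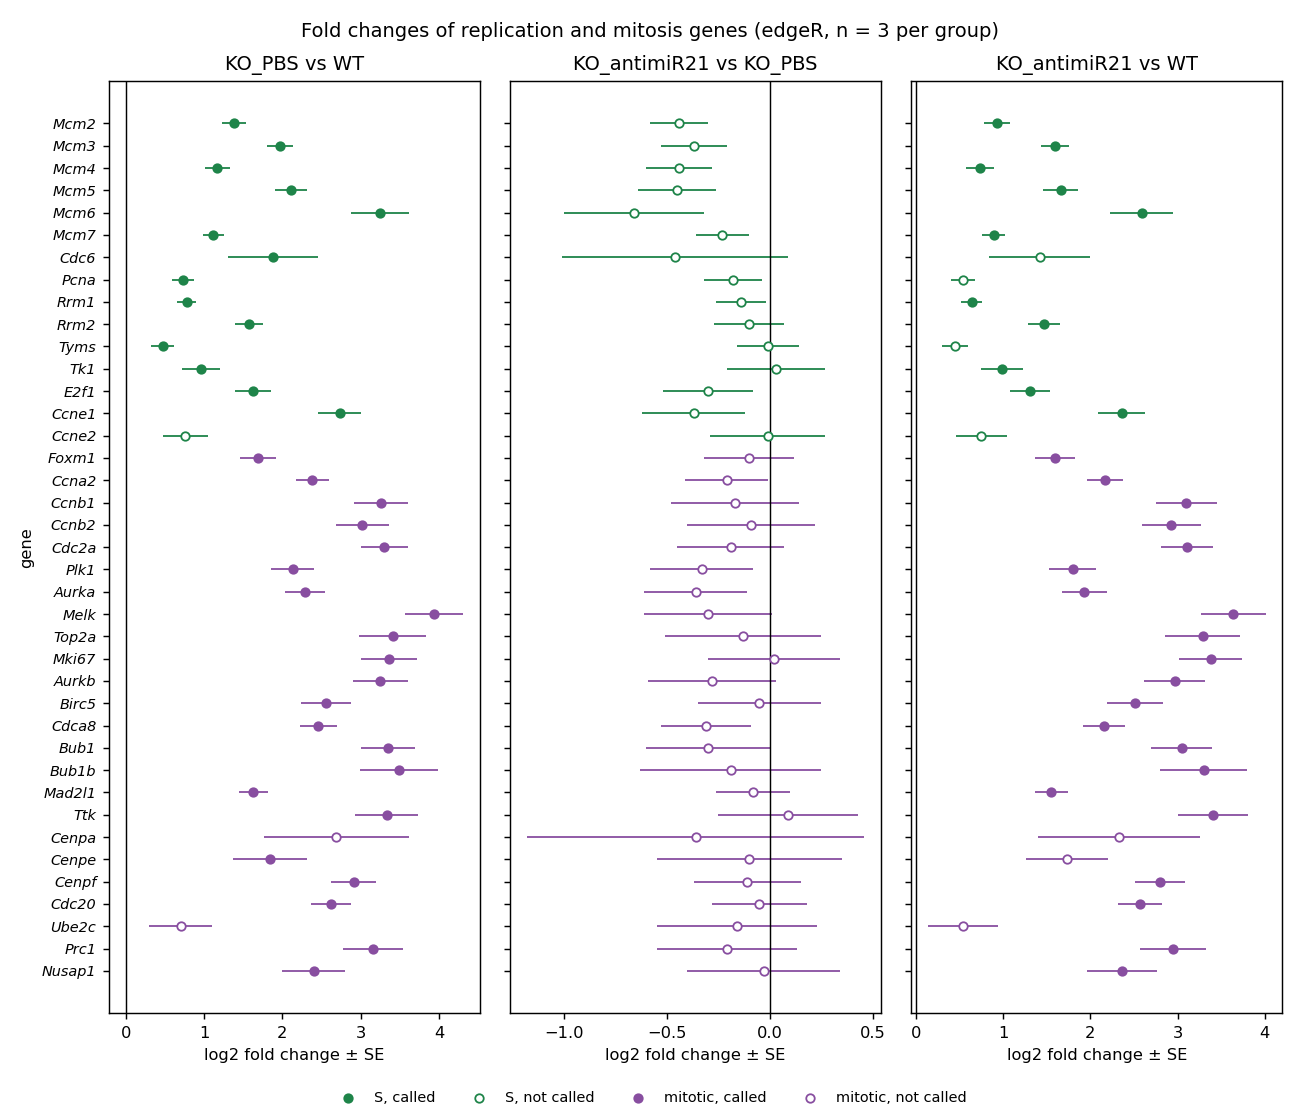
Log2 fold change with its standard error for each gene in the 3 comparisons (edgeR, 3 libraries a group), with filled points for calls at an adjusted p under 0.05, S phase genes in green and mitotic genes in purple. The left and right panels lie wholly above 0, from 0.47 to 3.94 and from 0.45 to 3.64, and the middle panel, on a narrower axis, runs from -0.66 to 0.09 with no call.

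The difference between the phases was ordered across genes. Of the 24 mitotic genes, 23 had a larger fold change in KO_PBS against WT than the median S phase gene, Ube2c being the exception. Of the 15 S phase genes, Mcm6 alone exceeded the mitotic median. The mitotic median exceeded the S phase median by 1.43 on the log2 scale, and by 1.38 without the genes that span both phases. Without the 6 genes under the filter level in a WT library, the medians were 1.27 for 14 S phase and 2.56 for 19 mitotic genes, a gap of 1.29. There 18 of 19 mitotic genes lay above the S phase median, and 2 of 14 S phase genes above the mitotic median. The S phase genes summed to 159 to 187 CPM in the WT libraries and the mitotic genes to 41.7 to 61.1 CPM. The part of that lower starting level in the difference was not tested. In KO_PBS the sums were 393 to 427 CPM and 275 to 333 CPM.

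A level was also taken for each library, as the mean over genes of log2 CPM minus that gene's WT mean. The S phase level was -0.25, 0.22 and 0.04 in WT 1 to 3, 1.43, 1.57 and 1.58 in KO_PBS 1 to 3, and 1.31, 1.35 and 1.09 in KO_antimiR21 1 to 3. The mitotic level was -0.09, 0.36 and -0.27 in WT 1 to 3, 2.66, 2.91 and 2.77 in KO_PBS 1 to 3, and 2.78, 2.83 and 2.10 in KO_antimiR21 1 to 3. The mitotic level exceeded the S phase level by 1.19 to 1.34 in the KO_PBS libraries and by 1.02 to 1.48 in the KO_antimiR21 libraries, against -0.30 to 0.16 in WT. All 6 knockout libraries thus lay above all 3 WT libraries in that gap. The WT gaps centre on 0 by construction, since each gene's WT mean is subtracted. The levels also include the 6 genes that passed the filter on the strength of the knockout libraries. No test was made of these levels, since they are scores over genes picked with earlier results known.

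**Figure D4:**
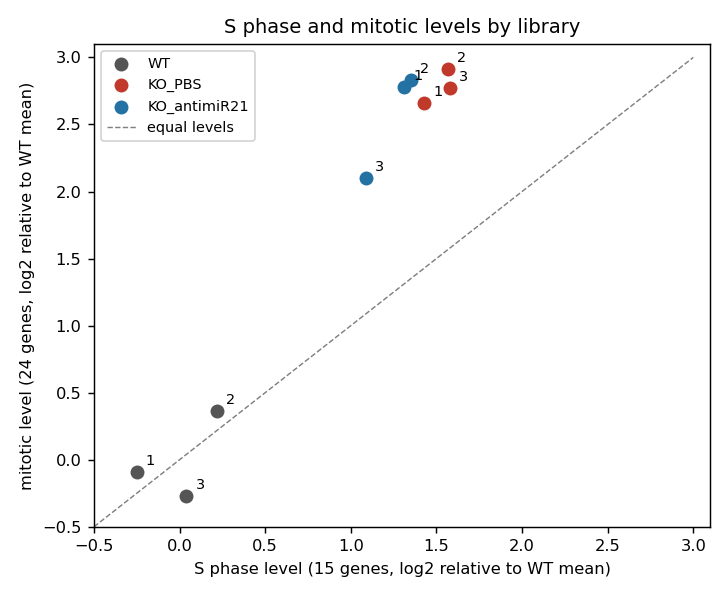
S phase level (x axis) against mitotic level (y axis) of each library, both on the log2 scale relative to the WT mean, with the replicate number beside each point and a dashed line where both levels are equal. The 6 knockout libraries lie above the line by 1.02 to 1.48, the WT libraries lie near it, and KO_antimiR21 3 is the lowest knockout library on both axes.

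The comparison of the 2 knockout groups asks what antimiR-21 changes in the Col4a3 -/- kidney, and for these genes no difference passed the test. edgeR called 0 of the 39 genes between KO_antimiR21 and KO_PBS, against 0% of all genes tested, and DESeq2 and limma each called 0 of the 39. Over all genes DESeq2 called 6 higher and 12 lower, where edgeR and limma called 0. The smallest edgeR adjusted p among the members was 0.707. Fold changes were small: the median was -0.30 for S phase genes and -0.16 for mitotic genes, against -0.01 for all genes tested. The estimate was negative in 36 of 39 genes and positive in Tk1, Mki67 and Ttk, or negative in 39 of 39 when scaled by library size alone, where the median of all genes was -0.14. That count leans on KO_antimiR21 3: without it, 17 of the 39 estimates changed sign, among them 14 mitotic genes, and the mitotic median was 0.04. The largest positive estimate, in Ttk, was 0.09 ± 0.34 and took either sign among the alternative fits.

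The helicase genes stood lowest in this comparison. All 6 MCM estimates were negative, with a median of -0.44, and 4 (Mcm2, Mcm3, Mcm4 and Mcm5) had an unadjusted p under 0.05, a level at which 3.38% of all genes were lower. Mcm2 had a log2 fold change of -0.44 ± 0.14 with an unadjusted edgeR p of 0.0136 and an adjusted p of 0.707. Mcm4 had -0.44 ± 0.16 and an unadjusted edgeR p of 0.0216, and its KO_antimiR21 libraries held 15.9, 22.2 and 18.1 CPM against 24.4, 25.8 and 26.1 CPM in KO_PBS. These 4 genes were picked out after their values were seen, and without KO_antimiR21 3 the count of members at an unadjusted p under 0.05 was 0. KO_PBS 1 and 2 carry the code L4 and the other knockout libraries L5. With the code in the fit, 2 members had an unadjusted edgeR p under 0.05.

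Groups that did not overlap were found mainly among the S phase genes. KO_antimiR21 lay wholly below KO_PBS in 6 of the 39 genes (Mcm2, Mcm3, Mcm4, Cdc6, Ccne1 and Aurka), 5 of 15 S phase genes and 1 of 24 mitotic genes, where 6.85% of all genes did so. Mcm6 had the most negative estimate, -0.66 ± 0.34, but overlapped: its KO_antimiR21 values of 31.2, 22.4 and 29.2 CPM enclosed the 28.8 CPM of KO_PBS 3. Within the code L5, which sets KO_PBS 3 alone against the KO_antimiR21 libraries, the Mcm6 estimate was -0.06. The summed MCM level was 206, 223 and 215 CPM in KO_PBS 1 to 3 and 160, 174 and 148 CPM in KO_antimiR21 1 to 3, with no overlap, and 61.5 to 75 CPM in WT. Fibroblast and pericyte markers also did not overlap between these groups: they summed to 2012, 2282 and 1690 CPM in KO_PBS 1 to 3 and to 1074, 1027 and 532 CPM in KO_antimiR21 1 to 3, with 8 of 8 estimates negative (median -0.98) and 0 called by edgeR. Macrophage markers summed to 1109, 846 and 857 CPM in KO_PBS 1 to 3 and to 691, 853 and 395 CPM in KO_antimiR21 1 to 3. These sums overlapped, and of the 10 macrophage estimates 0 were positive (median -0.60), with 0 called by edgeR. The part of either set of markers in the MCM level was not tested. Mitotic genes showed no such order: summed, they were 275, 333 and 308 CPM in KO_PBS 1 to 3 and 309, 331 and 199 CPM in KO_antimiR21 1 to 3.

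KO_antimiR21 3 stood apart from its group. It was the lowest of the 3 KO_antimiR21 libraries in 34 of 39 genes, 24 of 24 mitotic and 10 of 15 S phase. Its summed level of macrophage marker genes was 395 CPM against 691 and 853 CPM in KO_antimiR21 1 and 2, its T cell marker level was 14.0 CPM against 27.0 and 27.9 CPM, and its fibroblast marker level was 532 CPM against 1074 and 1027 CPM. The part of those cell markers in its lower mitotic level was not tested.

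Most of these genes were also higher in the antimiR-21 treated knockout kidney than in wild type. edgeR called 32 of the 39 genes higher in KO_antimiR21 than in WT (11 of 15 S phase, 21 of 24 mitotic) and 0 lower, against 6.72% of all genes called higher. All estimates were positive, with medians of 0.99 for S phase genes and 2.68 for mitotic genes, and 37 genes had no overlap, where 14.6% of all genes had none in that direction. Cdc6, Pcna, Tyms, Ccne2, Cenpa, Cenpe and Ube2c were not called. This comparison shares the WT libraries with that of KO_PBS, so their likeness is no independent evidence. Melk had the largest estimate, 3.64 ± 0.37, and Tyms the smallest, 0.45 ± 0.15. The 23 mitotic genes above the S phase median again lacked Ube2c, and 0 S phase genes exceeded the mitotic median.

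Sex and library code limit the comparison of KO_antimiR21 with WT further. With the 7 male libraries only, which left WT 2 as the sole WT library, the medians were 0.90 for S phase genes and 2.41 for mitotic genes. With sex in the fit, edgeR called 0 of the 39 genes (smallest adjusted p = 0.154). With the code in the fit 0 were called as well (smallest adjusted p = 0.244). All WT libraries carry L4 and all KO_antimiR21 libraries L5. The calls of Mcm4, Rrm1 and Tk1 were lost in some fits without a single library (Mcm4 and Rrm1 without WT 1 or WT 3, Mcm4 also without KO_PBS 2 or KO_antimiR21 2, Tk1 without WT 1, WT 2, KO_PBS 2, KO_antimiR21 1 or KO_antimiR21 2).

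Other genes of the same machinery were read from lists of replication genes, mitosis genes and regulators. Of 52 other replication genes tested, 31 were called higher in KO_PBS than in WT and 1 lower, with a median log2 fold change of 0.83. Of all genes tested, 14.6% were called higher and 9.85% lower. Dtl, an adaptor of the CUL4 ubiquitin ligase that clears licensing factors, stood at 0.675, 0.722 and 0.402 CPM in the WT libraries, 5.48, 6.38 and 7.39 CPM in the KO_PBS libraries, and 5.35, 4.99 and 4.23 CPM in the KO_antimiR21 libraries. Uhrf1, which keeps DNA methylation at the fork, stood at 4.09, 5.21 and 3.34 CPM in the WT libraries, 35.4, 29.6 and 33.6 CPM in the KO_PBS libraries, and 28.2, 30.3 and 16 CPM in the KO_antimiR21 libraries. Neither gene overlapped between KO_PBS and WT, and their log2 fold changes were 3.41 ± 0.29 and 2.96 ± 0.27, each with an edgeR adjusted p of 0.00135.

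The 3 replication genes of that list with the most counts differed less. Rpa1, a subunit of the single-strand binding protein, had a log2 fold change of -0.12 ± 0.21, and Rfc2, a clamp loader subunit, 0.05 ± 0.13; neither was called (edgeR adjusted p = 0.735 and 0.824). Dnmt1, the maintenance methyltransferase, rose by 0.82 ± 0.14 (edgeR adjusted p = 0.0049).

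Of 64 other mitosis genes tested, 53 were called higher in KO_PBS than in WT and 0 lower, with a median of 1.91. The shares over all genes were 14.6% and 9.85%. Racgap1, of the centralspindlin complex, rose by 1.90 ± 0.18, Cdca3, a trigger of mitotic entry, by 2.57 ± 0.25, and Dlg7, a spindle assembly gene now called Dlgap5, by 2.84 ± 0.31, each with an edgeR adjusted p of 0.00135. Among the 3 of that list with the most counts, Smc4, a condensin subunit, rose by 0.82 ± 0.18 (edgeR adjusted p = 0.0112), while Zwint (0.25) and Bub3 (0.22) were not called (edgeR adjusted p = 0.26 and 0.165). The order of the phases was the same as among the 39 genes, with the mitotic list above the replication list. Both lists come from the same libraries and were chosen with earlier results known, so this is no independent evidence. In WT 1 to 3 the replication list summed to 607, 660 and 641 CPM and the mitosis list to 340, 380 and 311 CPM. The part of that starting level in the order was not tested. In KO_antimiR21 against KO_PBS, edgeR called 0 genes of either list. In KO_antimiR21 against WT it called 17 of 52 replication and 47 of 64 mitosis genes higher, against 6.72% of all genes.

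Regulators of the programme were mixed. Of 22 genes of the E2F, RB and MuvB families, 6 were called higher in KO_PBS than in WT and 1 lower, with a median of 0.27. The shares over all genes were 14.6% higher and 9.85% lower. The repressors E2f8 and E2f7, themselves targets of E2F, rose by 3.48 ± 0.43 and 2.27 ± 0.37, with edgeR adjusted p-values of 0.00154 and 0.00378. E2f8 stood at 0.253, 0.361 and 0.161 CPM in the WT libraries and 2.3, 3.5 and 2.98 CPM in the KO_PBS libraries. At least 1 WT library thus lay under the filter level of 0.359 CPM, so E2f8 passed on the strength of the knockout libraries. Cdk4, the kinase that phosphorylates RB, stood at 68.2, 73.1 and 75.6 CPM in the WT libraries, 140, 120 and 120 CPM in the KO_PBS libraries, and 112, 109 and 90.6 CPM in the KO_antimiR21 libraries and rose by 0.81 ± 0.13 (edgeR adjusted p = 0.00321). Lin52, a subunit of the MuvB core, stood at 19.9, 23.7 and 19.5 CPM in the WT libraries, 10.2, 12.9 and 13.5 CPM in the KO_PBS libraries, and 12.9, 13.5 and 19.8 CPM in the KO_antimiR21 libraries and fell, with a log2 fold change of -0.79 ± 0.20 and an edgeR adjusted p of 0.0235. Rbbp4 (-0.02) and Rbl2 (-0.60) were not called. In KO_antimiR21 against WT, 3 of the 22 were called higher, against 6.72% of all genes.

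Markers of macrophages, T cells, fibroblasts and neutrophils were mostly called higher, and those of the other cell types listed were not. Macrophage markers were called higher in KO_PBS than in WT in 9 of 10 genes tested and T cell markers in 10 of 10. Fibroblast and pericyte markers were called higher in 7 of 8. Of all genes tested, 14.6% were called higher. The summed macrophage level was 175 to 214 CPM in the WT libraries and 846 to 1109 CPM in KO_PBS, the T cell level 5.32 to 7.18 and 21.7 to 26.5 CPM, and the fibroblast and pericyte level 296 to 330 and 1690 to 2282 CPM. Neutrophil markers were called in 2 of 3 genes tested, and their sums were 1.81 to 3.37 CPM in WT, with Mpo and Ngp at 0 in all WT libraries, and 13.2 to 14.9 CPM in KO_PBS. Of 8 proximal tubule markers, 5 were called lower, where 9.85% of all genes were. Among the 2 markers of each list with the most counts, C1qb, a complement gene of macrophages, had a log2 fold change of 3.58 ± 0.37 and Csf1r, the receptor that macrophages need, 0.29 ± 0.13 (edgeR adjusted p = 0.00135 and 0.143). Lck (1.84 ± 0.34) and Cd8a (1.48 ± 0.40) of T cells were called higher, as were Csf3r (2.65 ± 0.34) and S100a9 (1.94 ± 0.47) of neutrophils, with edgeR adjusted p-values of 0.00625, 0.0277, 0.00164 and 0.019. S100a9 held 0.295 CPM in WT 1, under the filter level of 0.359 CPM, so it passed on the strength of the knockout libraries. The collagen genes Col3a1 (3.78 ± 0.38) and Col1a1 (4.11 ± 0.42) of fibroblasts were called higher too, each with an edgeR adjusted p of 0.00135. Which cells hold the replication and mitosis transcripts, and the part of a changed cell makeup in their rise, was not tested.

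The promoters of both phases differed in their letters. Of the 39 genes, 34 were in the RefSeq promoter table (13 S phase, 21 mitotic; Mcm4, Ccne2, Foxm1, Ccna2 and Aurkb were not matched), with windows of 300 bases from 250 before to 50 after the start, read on both strands. CHR letters were in 15 of 21 mitotic genes (71.4%) and in 2 of 13 S phase genes (15.4%, Mcm2 and Mcm7), against 21.7% of all 27025 genes with a window of that length. E2F letters were in 5 of 13 S phase genes (38.5%, namely Mcm3, Mcm5, Mcm6, Mcm7 and Cdc6) and in 1 of 21 mitotic genes (4.76%, Cdc2a), against 2.60% of all genes. With the first T dropped from each E2F word, the shares were 7 of 13 S phase genes (53.8%), 3 of 21 mitotic genes (14.3%) and 10.9% of all genes. Of the 5 MCM genes matched, 4 held E2F letters. A gene with more than 1 start site was counted if any of its windows held the letters. CCAAT boxes were in 17 of 21 mitotic genes (81.0%), in 8 of 13 S phase genes (61.5%) and in 41.1% of all genes.

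A match of letters is a description, not a bound site, and no match says only that these letters are not in this window. Many CHR matches lie just after the start: with the 250 bases before the start alone, 8 of 21 mitotic genes (38.1%) held CHR letters, against 19.6% of all genes. In KO_PBS against WT the median log2 fold change was 3.02 for the 15 mitotic genes with CHR letters and 2.48 for the 6 without, and Melk, without CHR letters in its window, had the largest of all. The ranges overlapped, from 0.70 to 3.49 with the letters and from 1.63 to 3.94 without.

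**Figure D5:**
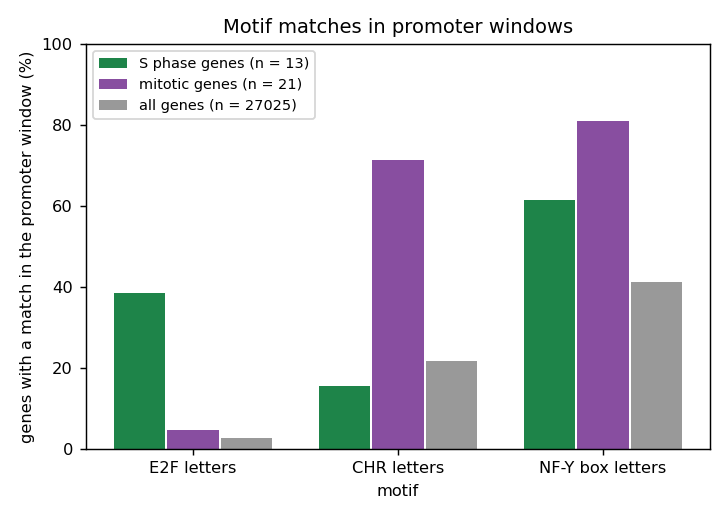
Share of genes, in percent, whose promoter window of 300 bases holds E2F letters, CHR letters or the NF-Y box letters (CCAAT), for 13 S phase genes, 21 mitotic genes and all 27025 genes in the promoter table. E2F letters are most frequent among S phase genes (38.5%) and CHR letters among mitotic genes (71.4%).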

How the data were processed

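Per the labels' protocols, miREASY was used to extract whole-kidney RNA and TruSeq RNA v2 to build the libraries. The authors deposited 1 table of expected counts per library, made with RSEM and Bowtie against mm9, per the submitters' processing notes; their versions, the annotation and the strand setting are not given in the sources used here. RSEM shares reads among near-identical copies. A log2 matrix, deposited by the authors as well (the submitters' processing notes name limma), equalled log2 CPM plus 1 constant per library to within 5.2e-14. Replicates were not copies: the chi-square per gene between libraries of a group was 30.8 to 138.

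The estimated counts were made whole by rounding, filtered with filterByExpr (17315 genes kept), scaled by TMM (factors 0.894 to 1.15) and tested in 1 quasi-likelihood fit of 3 group means with edgeR 4.0.16 in R 4.3.3. The p-values were two-sided, adjusted by Benjamini-Hochberg over all genes tested in each comparison, and called under 0.05. edgeR's test gives no standard error. The SE of a log2 fold change, in the text and figures, is its absolute value divided by the square root of the test's F statistic. CPM values use the TMM factors, log2 levels a prior count of 1. The procedure was tested on simulated data. Alternatives used DESeq2 1.42.0, limma 3.58.1, other filters and scalings, a replicate block, sex or library code as covariates, and left out each library. The fits on male libraries only, on code L4 or L5 only, with Cdc6 and cdc6 summed, and without genes scarce in WT were chosen after seeing the data. Sex was called from 4 Y-linked genes. Promoter windows were taken from RefSeq (GRCm38.p6) by symbol.

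The 39 genes, the other gene lists (replication, mitosis, regulators, and markers of 11 cell types) and the motifs were chosen with earlier results of these data known. Values in every library are given for each gene of a role with 3 or fewer genes, for the 3 genes with the highest mean count in larger roles, for the largest and smallest fold change in each comparison and for genes not called between KO_PBS and WT. From other pathway lists, the 3 genes with the highest mean count, the 3 with the lowest p and any gene called against its list are named, and from marker lists the 2 with the highest mean count. Some genes that the rule takes from the pathway lists are not reported here.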

Additional observations from a re-analysis of the deposited data

How the results depend on the processing

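Few counts in wild type limit the fold changes of Cdc6, Melk, Bub1, Ttk and Cenpa, and 3 libraries a group limit every test. Between KO_PBS and WT, edgeR called 36 members higher, and 32 to 35 with each library left out in turn, but 0 with sex in the fit and 0 with male libraries only. Between KO_antimiR21 and WT it called 32, and 29 to 34 with a library left out, but 0 with sex in the fit, 0 with the library code in the fit and 0 with male libraries only. In KO_PBS against WT the S phase median of 1.38 was 1.65 scaled by library size alone, 1.0 with sex in the fit and 1.02 with male libraries only; the mitotic median of 2.80 was 3.07 scaled by library size alone and 2.55 with sex in the fit; and the gap of 1.43 was 1.63 with limma. The S phase median of -0.30 in KO_antimiR21 against KO_PBS was -0.42 scaled by library size alone. In KO_antimiR21 against WT the S phase median of 0.99 was 0.75 with the library code in the fit and 0.94 to 1.21 with a library left out, and the gap of 1.69 was 1.42 to 1.95. As medians over genes, not means, the S phase level was 1.37 in KO_PBS and 1.04 in KO_antimiR21 and the mitotic level 2.94 in KO_PBS. The estimate for Ttk in KO_antimiR21 against KO_PBS (0.09) was -0.02 scaled by library size alone, -0.10 with the library code in the fit, -0.10 within code L5, -0.00 with limma, and -0.12 to 0.42 with a library left out. CHR letters were in 38.1% of mitotic genes with 250 bases. With shortened words, E2F letters were in 53.8% of S phase genes, 14.3% of mitotic genes and 10.9% of all genes, against 38.5%, 4.76% and 2.60%. Without the 6 genes under the filter level in a WT library, chosen after seeing the data, the gap was 1.29 in KO_PBS and 1.55 in KO_antimiR21 against WT. Over all genes, edgeR called 2521 higher and 1705 lower between KO_PBS and WT; with 1 library left out these were 1756 to 2497 and 667 to 1855, with the replicate block 2076 and 1129, with the library code in the fit 2114 and 1076, and within code L4 1970 and 1146. Between KO_antimiR21 and WT the 1164 higher and 74 lower became 651 to 1467 and 2 to 158 with 1 library left out, 696 and 11 when fitted without KO_PBS, 1617 and 394 with DESeq2, 1329 and 49 scaled by library size alone, and 881 and 42 with the replicate block. The causes were not tested, beyond the fewer samples in the fits that leave some out. Of 1809 values for single genes under an alternative, 214 lost and 17 gained a call. Numbers in the titles did not pair libraries: correlations of same-numbered libraries were -0.31, 0.16 and -0.34 between KO_PBS and WT, 0.42, -0.08 and 0.12 between KO_antimiR21 and KO_PBS, and -0.23, 0.03 and -0.20 between KO_antimiR21 and WT. With the replicate block, 35, 0 and 32 members were called.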

Other observations

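Several kidney tubule markers were lower in the knockout. Of 6 thick ascending limb and distal tubule markers, 4 were called lower in KO_PBS than in WT by edgeR, as were 3 of 6 collecting duct markers, where 9.85% of all genes were called lower. Of 8 endothelial markers 1 was called lower and of 6 podocyte markers 1 was called higher, shares near those of all genes (9.85% lower and 14.6% higher). Slc12a1, the sodium, potassium and chloride cotransporter of the thick ascending limb, stood at 1986, 1250 and 1690 CPM in the WT libraries and at 313, 550 and 587 CPM in KO_PBS, and Aqp1, a proximal tubule water channel, at 1426, 1658 and 1895 CPM and at 346, 663 and 762 CPM. Neither overlapped between those groups, with log2 fold changes of -1.76 ± 0.32 and -1.49 ± 0.33 (SE) and edgeR adjusted p-values of 0.00568 and 0.0137. Slc34a1, the proximal tubule phosphate transporter, fell by 1.60 ± 0.47 and Aqp3, a collecting duct water channel, by 1.15 ± 0.28 on that scale (edgeR adjusted p = 0.039 and 0.0187). The estimates of Umod (-0.42), Aqp2 (-0.77), Eng (0.25), Emcn (-0.69), Podxl (0.04) and Synpo (0.57) did not pass, with edgeR adjusted p-values from 0.0804 to 0.932.

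B and plasma cell markers had a median log2 fold change of 0.34 over the 4 genes tested, with a smallest edgeR adjusted p of 0.0879; Cd79b (0.21) and Cd79a (0.46) had the most counts. Erythroid precursor markers gave a mixed reading: of 4 tested, 1 was called higher and 1 lower in KO_PBS than in WT. The shares over all genes were 14.6% and 9.85%. Tfrc, the transferrin receptor gene, which cycling cells and tubule cells also express, fell from 87.4, 81.1 and 55.7 CPM in WT 1 to 3 to 26.1, 27.7 and 32.1 CPM in KO_PBS 1 to 3 (edgeR adjusted p = 0.0036). It thus went the other way from the replication and mitosis genes. Epb4.2, a red cell membrane skeleton gene, stood at 1.1, 0.281 and 0.282 CPM in WT and 3.23, 2.64 and 2.7 CPM in KO_PBS (edgeR adjusted p = 0.0236). WT 2 and WT 3 lay under the filter level of 0.359 CPM, so Epb4.2 passed on the strength of the knockout libraries.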
